A study of Mus musculus with 13 samples.

Results

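Cholesterol synthesis and its control by the sterol-regulated transcription factor SREBP2 were followed through 7 genes in thymocytes sorted before and after β-selection. They are Hmgcs1, Idi1, Fdft1, Sqle and Lss, which encode enzymes of the pathway, and Insig1 and Srebf2, which encode its regulators. These genes and the further lists below were chosen by name, with earlier results of these data known. Counts of called genes are therefore a description, also beside the share of all genes. All 7, of the 47937 genes in the count table, were found and passed the filter on low counts in every comparison. Thymocytes were at the CD4-CD8- double negative stages DN3 and DN4, and RNA was sequenced in 13 libraries from 7 mice on a C57BL/6 background, with an age of 6 weeks in the series' design text. The Wt mice were WT;Lck-Cre+, and gave 3 DN3 and 4 DN4 libraries. The others were Opa1fl/fl;Lck-Cre+, and gave 3 libraries of each stage. In these, Cre under the Lck promoter, active in developing T cells, removes floxed sequence of Opa1, which encodes a protein that shapes mitochondria. Every mouse therefore carried Cre. Both stages were sequenced from 6 of the mice (KO45, KO49, KO51, WT05, WT46, WT48), and from WT40 DN4 alone. Opa1 counts over the whole gene did not separate the genotypes (77.0 to 93.8 CPM, counts scaled to a common library size, in libraries labelled KO and 85.1 to 111.8 in Wt libraries), so libraries are called KO-labelled here. The study itself reports reduced OPA1 protein in immunoblots of thymocytes from such mice.

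Cells make cholesterol from acetyl-CoA through the mevalonate pathway. HMG-CoA synthase (Hmgcs1) acts before mevalonate, isopentenyl-diphosphate isomerase (Idi1) prepares the isoprene units, squalene synthase (Fdft1) joins them into squalene, and squalene epoxidase (Sqle) and lanosterol synthase (Lss) close the first sterol ring system. When sterols run low, SCAP carries SREBP2, the product of Srebf2, to the Golgi for cleavage, and the freed factor raises transcription of these enzymes and of genes for lipoprotein uptake. When sterols are plentiful, INSIG proteins hold SCAP and SREBP2 in the endoplasmic reticulum. Proliferating lymphocytes depend on this pathway for membrane.

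Because SREBP2 acts at promoters, the bases before the start sites were read for letters of its binding site. RefSeq sequence on GRCm38.p6 was at hand for 5 of the 7 genes (Hmgcs1, Idi1, Lss, Insig1 and Srebf2), 250 bases before each start, and the windows of 4 are printed: Hmgcs1 and Lss, which were lower in DN4 libraries, and Insig1 and Srebf2, for which no stage difference was called. Capitals mark TCACNCCA, the core of a sterol regulatory element, and CCAAT or its reverse complement ATTGG, bound by NF-Y. All windows run 5′ to 3′ on the + strand, Hmgcs1 at chr13:119690101-119690350, Lss at chr10:76531355-76531604, Insig1 at chr5:28071162-28071411 and Srebf2 at chr15:82147019-82147268.
Hmgcs1: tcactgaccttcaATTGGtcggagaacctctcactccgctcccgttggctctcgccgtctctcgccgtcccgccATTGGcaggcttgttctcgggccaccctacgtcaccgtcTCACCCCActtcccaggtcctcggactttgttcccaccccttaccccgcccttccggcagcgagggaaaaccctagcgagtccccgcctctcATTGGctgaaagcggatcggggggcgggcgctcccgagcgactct
Lss: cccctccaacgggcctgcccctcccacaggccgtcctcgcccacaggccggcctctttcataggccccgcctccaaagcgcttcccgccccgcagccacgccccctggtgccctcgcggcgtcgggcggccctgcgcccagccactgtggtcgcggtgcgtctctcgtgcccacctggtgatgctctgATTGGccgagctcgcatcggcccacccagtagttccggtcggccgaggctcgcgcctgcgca
Insig1: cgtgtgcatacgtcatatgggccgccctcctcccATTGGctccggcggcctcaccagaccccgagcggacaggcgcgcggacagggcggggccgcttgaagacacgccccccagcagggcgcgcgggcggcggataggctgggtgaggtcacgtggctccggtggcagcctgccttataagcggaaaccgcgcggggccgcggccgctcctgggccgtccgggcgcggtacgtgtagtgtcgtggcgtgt
Srebf2: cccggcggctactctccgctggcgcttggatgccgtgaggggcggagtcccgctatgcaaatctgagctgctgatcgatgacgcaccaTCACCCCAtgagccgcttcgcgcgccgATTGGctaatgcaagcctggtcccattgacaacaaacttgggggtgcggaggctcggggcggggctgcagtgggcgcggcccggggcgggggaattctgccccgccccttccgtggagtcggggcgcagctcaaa
TCACNCCA was searched on both strands. It stood 137 bases before the start of Hmgcs1 and 162 bases before that of Srebf2, and in no other of the 5 windows, against 3.67% of 32851 RefSeq promoter windows of that length. CCAAT on either strand was in all 5 windows, always as ATTGG, at 45 bases before the start in both Hmgcs1 and Idi1 and at 62 in Lss. Of the 22 synthesis enzymes listed, 17 had sequence at hand, and 16 of these held CCAAT in a window, against 37.5% of all genes with a window. TCACNCCA was in a window of 2 of these 17, against 4.20% of all such genes. A match is a match of letters only, and no match says only that these letters are not in the window.

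Libraries held 5926848 to 14148661 counts. The DN3 library of WT05 was the smallest, and 20.1% of its counts fell on the ribosomal RNA-like gene Gm42418. Its TMM scaling factor was 0.578 against 0.995 to 1.10 in the other 12. With library totals as the scaling, the median log2 change of all genes from DN3 to DN4 in Wt mice was 0.16 rather than -0.03, so stage values of named genes are given without this library where leaving it out moved them by over 1.5 times or changed a call (Hmgcs1, Insig1, Srebf1 and Fasn). Il2ra, which encodes the DN3 surface marker CD25, was at 727 to 1337 CPM in DN3 libraries and 9.78 to 24.1 CPM in DN4 libraries, as the stage labels have it. The summed level of 8 B cell markers was 49.2 to 81.4 CPM in DN3 libraries but 366 to 4090 CPM in DN4 libraries, highest in WT48, and 8 of 8 were called higher in DN4 in both genotypes. Markers of the later immature single positive and double positive stages were also higher in DN4, with 7 of 8 called in both genotypes and sums of 823 to 1223 CPM in DN3 and 891 to 5227 CPM in DN4. Myeloid markers summed to at most 32.3 CPM and erythroid markers to at most 6.29 CPM in any library. The part of these cells in the stage differences below was not tested. In sorted populations, fewer cells that express a gene and less RNA per cell cannot be told apart.

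Across the 7 genes, levels per kilobase of annotated exon kept a similar order in each group. In Wt DN3 libraries Srebf2 stood highest at 41.4 ± 2.97 CPM per kb (SD, n = 3), followed by Hmgcs1 at 22.2 ± 2.92, Sqle at 12.9 ± 0.620, Insig1 at 11.2 ± 2.44, Idi1 at 9.31 ± 1.33, Fdft1 at 8.12 ± 1.15 and Lss at 4.31 ± 0.269 CPM per kb. Sqle, Insig1, Idi1 and Fdft1 did not differ from their neighbours in this order beyond 1 SD of each, and Srebf2, Hmgcs1 and Lss stood apart. In KO-labelled DN4 libraries the ends of the order were again Srebf2 at 38.2 ± 6.10 and Lss at 2.96 ± 0.966 CPM per kb (n = 3). The exons of Lss span 10787 annotated bases, more than of any other of the 7 genes, which lowers its level per kb.

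After β-selection, 3 of the enzymes were lower. From DN3 to DN4 in Wt mice, edgeR's quasi-likelihood test called Hmgcs1, Sqle and Lss, 3 of the 7 genes, all lower, where 22.9% of all 12691 genes tested were called and 9.43% were called lower. The same 3 did not overlap between the stages, which held in that direction for 15% of all genes and in the other for 20%. Their levels in DN4 were 0.6001 (Sqle), 0.697 (Lss) and 0.761 (Hmgcs1) of those in DN3. With library totals as the scaling 0 of the 7 were called, where 14% of all genes were called, 3.12% lower and 10.9% higher. In one fit over all 13 libraries it was also 0, where 26.6% were called, 10.5% lower and 16.1% higher. Fits with the mouse as a block used only mice with both stages, so they left out the DN4 library of WT40. In this fit 1 of the 7, Sqle, was called, where 18.7% of 12531 genes were called, 6.53% lower and 12.1% higher. Without that library and without a block, edgeR adjusted p was 0.0774 for Hmgcs1 and 0.0499 for Lss. The median log2 fold change of the 7 was -0.39, against -0.03 over all genes, and 0 of the 7 were called higher.

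Sqle, whose product oxidizes squalene in an oxygen-dependent, rate-limiting step, fell most among the 3. It was at 69.1, 70.0 and 75.4 CPM in the DN3 libraries of WT05, WT46 and WT48, and at 42.3, 46.4, 50.7 and 35.2 CPM in the DN4 libraries of WT05, WT40, WT46 and WT48. The lowest DN3 library lay above the highest DN4 library. Its log2 fold change was -0.74 ± 0.137 (standard error, edgeR adjusted p = 0.00619). The call was kept with any 1 of the 7 libraries left out (adjusted p between 0.00649 and 0.0321, and 0.0123 without the DN3 library of WT05) and with the mouse as a block (0.0168). It was lost with library totals as the scaling (0.257) and in one fit over all 13 libraries (0.0606).

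Lss, the enzyme that folds oxidosqualene into lanosterol, was at 45.9, 49.6 and 43.8 CPM in the DN3 libraries of WT05, WT46 and WT48. In DN4 it was at 29.9, 30.8, 36.1 and 35.0 CPM in WT05, WT40, WT46 and WT48, again without overlap. The log2 fold change was -0.52 ± 0.123 (edgeR adjusted p = 0.0173, and 0.0232 without the DN3 library of WT05). The adjusted p was 0.0733 with the mouse as a block, 0.0732 without the DN3 library of WT46 and 0.0538 without the DN4 library of WT05.

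Hmgcs1, which opens the mevalonate branch, was at 116.8, 98.7 and 90.5 CPM in DN3 and 82.6, 84.5, 77.6 and 70.6 CPM in DN4, in the same orders of mice. The stages did not overlap, by a narrow margin. Its log2 fold change of -0.39 ± 0.120 was just past the threshold (edgeR adjusted p = 0.0471). The call was lost with each of the 7 libraries left out in turn (0.0542 to 0.105), with the mouse as a block (0.0808), with DESeq2's size factors (0.0524) and with no filter on low counts (0.0954). Without the DN3 library of WT05 the log2 fold change was -0.30.

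Idi1 was at 37.2, 32.9 and 27.9 CPM in the Wt DN3 libraries and 21.7, 22.05, 29.1 and 14.9 CPM in the Wt DN4 libraries. The DN4 library of WT46 lay above the DN3 library of WT48, so the stages overlapped. Its log2 fold change of -0.59 ± 0.222 did not pass (edgeR adjusted p = 0.0907, and 0.0392 without the DN4 library of WT46). Fdft1 was at 29.8, 39.5 and 33.7 CPM in DN3 and 29.2, 31.6, 37.1 and 25.1 CPM in DN4, with a log2 fold change of -0.19 (95% interval -0.57 to 0.19, adjusted p = 0.458), which was -0.29 without the DN4 and -0.075 without the DN3 library of WT46.

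The regulators did not pass in Wt mice. Insig1 was at 27.2, 42.3 and 34.8 CPM in DN3 and 32.2, 32.4, 40.9 and 32.0 CPM in DN4. The range of the DN3 libraries enclosed that of the DN4 libraries, and the log2 fold change was -0.05 (95% interval -0.45 to 0.35, edgeR adjusted p = 0.869, and -0.20 without the DN3 library of WT05). Srebf2 was at 315.4, 303.6 and 274.1 CPM in DN3 and 270.0, 249.2, 268.3 and 282.2 CPM in DN4. Its log2 fold change was -0.18 (95% interval -0.42 to 0.059, adjusted p = 0.259), and with library totals as the scaling both genes turned to the other side of 0 (0.086 for Insig1 and 0.021 for Srebf2).

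**Figure D1:**
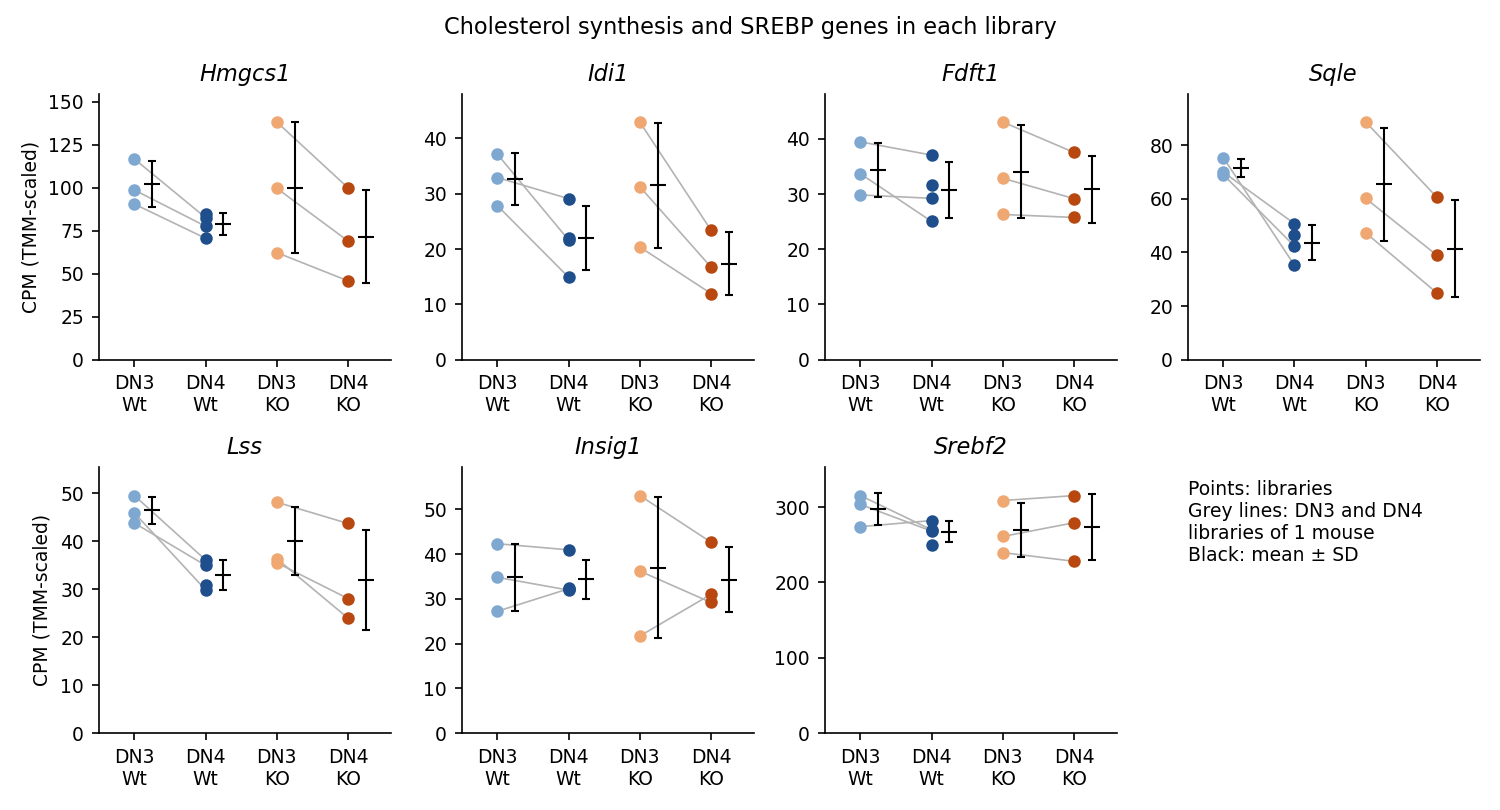
Levels of the 7 genes in each library, as CPM on TMM-scaled library sizes (vertical axes start at 0), by stage and genotype. Points are libraries, grey lines join the DN3 and DN4 libraries of 1 mouse, and black bars give the mean ± SD (n = 3, or 4 in DN4 Wt). Lines for Hmgcs1, Idi1, Fdft1, Sqle and Lss fall in all 6 mice, whereas those of Insig1 and Srebf2 cross, and the SD of the KO-labelled mice is larger than that of the Wt mice at both stages except for Idi1 in DN4.

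In KO-labelled mice the log2 fold changes of the 7 genes had larger standard errors than in Wt mice without regard to mouse. They had smaller ones with the mouse as a block, where the Wt fit was without WT40. Without the block edgeR called 0 of the 7 genes (1 had an unadjusted p under 0.05, and DESeq2 called 1, Idi1), where 18.6% of 12580 genes were called and 7.34% were called lower. All 7 overlapped between the stages, where 16.7% of genes did not overlap in the lower and 22% in the higher direction. Mouse numbers paired the libraries, and with the mouse as a block 4 of the 7, Hmgcs1, Idi1, Sqle and Lss, were called lower, where 35.8% of all genes were called, 16.9% lower and 18.9% higher. The median log2 fold change of the 7 genes was -0.35 without and -0.38 with the block.

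In mice KO45, KO49 and KO51, DN3 cells had Sqle at 47.3, 60.1 and 88.7 CPM, against 24.8, 38.9 and 60.6 CPM in DN4 cells. Each mouse fell, but the stages overlapped, because KO51 had more Sqle in DN4 than KO45 had in DN3. This was a log2 fold change of -0.68 ± 0.334 without the block (edgeR adjusted p = 0.199) and -0.72 ± 0.114 with it (adjusted p = 0.00124). Idi1 was at 20.4, 31.3 and 43.0 CPM in DN3 and 12.0, 16.7 and 23.4 CPM in DN4. The log2 fold change was -0.88 (adjusted p = 0.0935), and -0.87 with the block (adjusted p = 0.000821). Hmgcs1 was at 62.3, 99.7 and 138.2 CPM in DN3 and 45.8, 69.0 and 99.9 CPM in DN4. It gave a log2 fold change of -0.50 in both fits, with an adjusted p of 0.338 without and 0.00163 with the block. Single libraries moved these values without the block: with 1 left out they ran from -1.08 to -0.43 for Sqle, -1.17 to -0.62 for Idi1 and -0.84 to -0.23 for Hmgcs1, with the lowest without the DN4 library and the highest without the DN3 library of KO51.

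In the same mice Lss was at 36.4, 35.5 and 48.2 CPM before and 24.0, 28.1 and 43.7 CPM after β-selection, with a log2 fold change of -0.35 (edgeR adjusted p = 0.343) and -0.38 with the block (0.0455). With 1 library left out the value without the block ran from -0.66 without the DN4 library of KO51 to -0.21 without that of KO45. Fdft1, at 26.3, 32.9 and 43.1 CPM in DN3 and 25.8, 29.2 and 37.5 CPM in DN4, did not pass in either fit (adjusted p = 0.623 and 0.304). Insig1 was at 21.7, 36.2 and 53.1 CPM in DN3 and 31.0, 29.2 and 42.6 CPM in DN4, and neither it (adjusted p = 0.801 and 0.772) nor Srebf2 passed. Srebf2, at 239.6, 261.1 and 308.8 CPM in DN3 and 228.2, 279.3 and 315.3 CPM in DN4, had log2 fold changes of 0.0022 and -0.0054 (adjusted p = 0.993 and 0.967).

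Read within each mouse, Hmgcs1, Idi1, Fdft1, Sqle and Lss were lower in the DN4 library in 6 of 6 mice, which held for 17.6% of the 13361 genes kept over all libraries. For Sqle the log2 differences ran from -1.10 in WT48 to -0.46 in WT46. For Fdft1 they ran from -0.43 to -0.03, so its direction was shared but its size was small in WT05 and KO45. Insig1 was lower in 4 of 6 mice and 0.52 higher in KO45, and Srebf2 was lower in 3 of 6. One stage effect over these 6 mice, with the mouse as a block, called Hmgcs1 (log2 fold change -0.44), Idi1 (-0.73), Sqle (-0.73) and Lss (-0.41) lower, where 41% of 13323 genes were called, 18% lower and 23% higher. This fit was chosen after the data were seen.

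Other enzymes of the pathway were called lower as well. Of 22 enzymes from acetyl-CoA to cholesterol, the 5 above included, 10 were called lower and 0 higher from DN3 to DN4 in Wt mice, with a median log2 fold change of -0.42, beside 9.43% and 13.4% of all genes. The count was also 10 without the DN3 library of WT05 (11.4% of all genes lower), but fell to 4 without the DN3 library of WT46 (5.82%) or the DN4 library of WT05 (5.76%). It was 6 without the DN3 library (5.90%) or the DN4 library (8.62%) of WT48. With the mouse as a block it was 5, beside 6.53%. In KO-labelled mice 1 of the 22 was called lower without the block, beside 7.34% of all genes, and 12 with it, beside 16.9%. The 1 was Dhcr7, which reduces the last double bond of one branch (log2 fold change -0.45, edgeR adjusted p = 0.0299), whose call was lost in 5 of the 6 fits without 1 library (0.0603 to 0.108). Without single KO-labelled libraries the count was 0 in 4 of 6 fits, 2 without the DN3 library of KO45 (5.41% of all genes lower) and 6 without the DN4 library of KO51 (7.92%), and the median of the 22 ran from -0.61 to -0.23.

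Besides Hmgcs1, Sqle and Lss, the enzymes called lower in Wt mice included 5 by name. Fdps, which makes farnesyl diphosphate, was at only 5.78 to 12.3 CPM in Wt libraries and had a log2 fold change of -0.74 (edgeR adjusted p = 0.0361, and 0.0895 with the mouse as a block). Of the 7 fits that each left out 1 library, those without the DN3 library of WT05 or the DN4 library of WT46 kept the call and the other 5 lost it (0.0733 to 0.116). In the sterol arm these were Tm7sf2 (log2 fold change -0.90), a sterol reductase, Hsd17b7 (-0.68), a ketoreductase, Dhcr7 (-0.62) and Cyp51 (-0.56), which demethylates lanosterol. The call of Hsd17b7 was lost with the mouse as a block (edgeR adjusted p = 0.0715). It was also lost without the DN3 library of WT48 (0.0707) or the DN4 library of WT05 (0.0606), that of Tm7sf2 without the DN3 library of WT46 (0.0576), and that of Dhcr7 without the DN3 library of WT46 or WT48 or the DN4 library of WT05 or WT48 (0.0624 to 0.113). With library totals as the scaling none of Fdps, Tm7sf2, Hsd17b7 and Dhcr7 passed (0.207 to 0.440), and in one fit over all 13 libraries Fdps (0.0909) and Hsd17b7 (0.109) did not. Pmvk, phosphomevalonate kinase, and Ebp, a sterol isomerase, stood on the other side of 0 in both genotypes, at 0.32 and 0.14 in Wt mice, and did not pass in either genotype. Over the 6 mice with the mouse as a block, 14 of the 22 enzymes were called lower and 2 higher, beside 18% and 23% of all genes, and the 2 were Pmvk (log2 fold change 0.35, edgeR adjusted p = 0.0171) and Ebp (0.24, adjusted p = 0.0460), each higher in 6 of 6 mice.

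**Figure D2:**
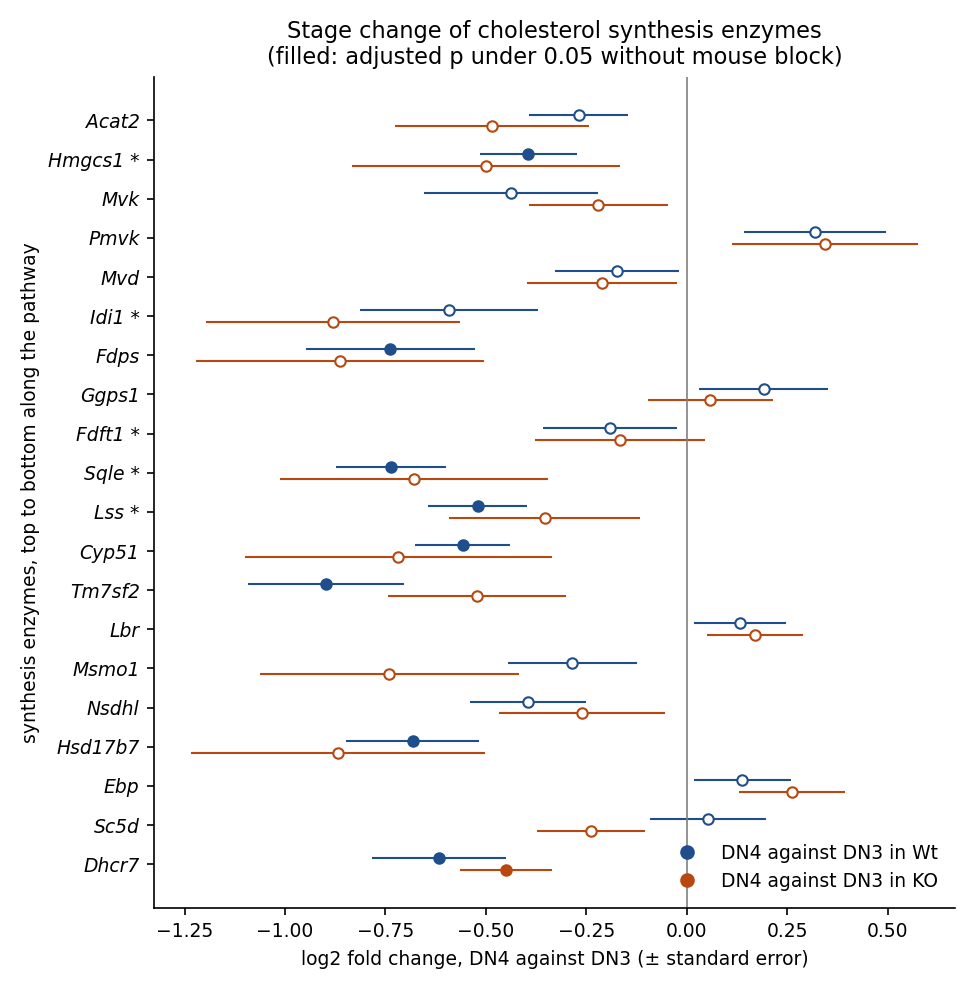
Log2 fold change from DN3 to DN4 of 20 synthesis enzymes, in pathway order from top to bottom, in Wt (blue) and KO-labelled mice (orange), with standard errors from edgeR without the mouse block. Filled points passed an adjusted p of 0.05 and asterisks mark the enzymes among the 7 genes. In Wt mice 15 of 20 points lie below 0, the 8 filled ones among them. In KO-labelled mice 16 of 20 lie below 0 and 1 is filled.

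In Wt mice 4 of 11 further genes of the SREBP control machinery were called higher in DN4 and 1 lower, beside 13.4% and 9.43% of all genes. In the fit with the mouse as a block these counts were 2 and 0, beside 12.1% and 6.53%. In KO-labelled mice 2 were called higher and 0 lower, beside 11.2% and 7.34%, and 3 and 2 with the block, beside 18.9% and 16.9%. Scap, the escort of SREBP2, was at 157.3 to 163.3 CPM in Wt DN3 and 125.3 to 141.4 CPM in Wt DN4 libraries, with a log2 fold change of -0.29 (edgeR adjusted p = 0.0547). Srebf1, whose products favour fatty acid genes, was at 122.9 to 149.9 CPM in Wt DN3 and 118.3 to 170.6 CPM in Wt DN4 libraries (log2 fold change 0.12, adjusted p = 0.611). The log2 fold change was 0.038 without the DN3 and 0.23 without the DN4 library of WT05. In KO-labelled mice its log2 fold change was 0.34 (adjusted p = 0.0922, and 0.00927 with the mouse as a block), and over the 6 mice with the block it was 0.23 (adjusted p = 0.0434). Insig2, the second INSIG protein, was at 16.4, 16.4 and 14.8 CPM in DN3 and 23.2, 24.3, 20.3 and 24.1 CPM in DN4, higher by 0.51 (adjusted p = 0.0299), a call that was lost with the block (0.140) and in 5 of the 7 fits without 1 library (0.0552 to 0.107). In KO-labelled mice its log2 fold change was 0.11 (adjusted p = 0.639, with 0.012 without the DN4 library of KO45 and 0.17 without the DN3 library of KO51), and the difference between the genotypes was -0.40 (adjusted p = 0.99996 for the interaction).

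Rnf145 and Rnf139, ubiquitin ligases of the endoplasmic reticulum, were also called higher in DN4 of Wt mice. Rnf145 was at 81.6, 85.8 and 83.2 CPM in Wt DN3 libraries and 188.7, 207.0, 174.3 and 258.4 CPM in Wt DN4 libraries. It rose by 1.28 on the log2 scale in Wt (edgeR adjusted p = 0.000806) and 1.07 in KO-labelled mice (adjusted p = 0.00491), and it was higher in 6 of 6 mice. Rnf139 rose by 0.49 in Wt mice (adjusted p = 0.0273), a call lost with the block (0.0817) and in 4 of the 7 fits without 1 library (0.0689 to 0.0968). In KO-labelled mice its log2 fold change was 0.17 with and without the block (adjusted p = 0.283 and 0.573), from 0.025 without the DN4 library to 0.34 without the DN3 library of KO45. Erlin1, a protein of the endoplasmic reticulum membrane, had a log2 fold change of -0.45 (adjusted p = 0.0212, 0.0873 with the block, and 0.0501 to 0.0784 in the 3 of 7 fits without 1 library that lost the call). With library totals as the scaling Insig2, Rnf139 and Erlin1 did not pass (adjusted p = 0.1498, 0.107 and 0.651).

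Uptake genes were called in both directions. Of 14 genes for uptake and intracellular transport, 13 could be tested in Wt mice, and 3 were called lower and 5 higher, beside 9.43% and 13.4% of all genes. In KO-labelled mice 1 was called lower and 5 higher, beside 7.34% and 11.2%, and 4 and 5 with the mouse as a block, beside 16.9% and 18.9%. Without the block, the counts were 0 and 3 without the DN3 library of KO49 or KO51 (4.33% and 4.49% of all genes lower). They were 2 and 5 without the DN4 library of KO51 (7.92% lower). Scarb1, a lipoprotein receptor, was at 81.9, 92.8 and 83.2 CPM in Wt DN3 libraries and 42.9, 52.4, 60.3 and 36.7 CPM in Wt DN4 libraries, without overlap. Its log2 fold change was -0.87 (edgeR adjusted p = 0.00789), and -0.69 in KO-labelled mice (adjusted p = 0.0953, 0.00239 with the mouse as a block, and 0.00556 without the DN4 library of KO51, which gave -1.03). Npc1, the lysosomal cholesterol exporter, was at 94.4 to 112.4 CPM in Wt DN3 and 59.7 to 68.2 CPM in Wt DN4 libraries, with a log2 fold change of -0.71 (adjusted p = 0.00232). In KO-labelled mice it was -0.42 (adjusted p = 0.191, and 0.00678 with the block), and ran from -0.62 without the DN4 library to -0.20 without the DN3 library of KO45. With library totals as the scaling neither passed in Wt mice (adjusted p = 0.167 for Scarb1 and 0.209 for Npc1).

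Mylip encodes a ubiquitin ligase that limits lipoprotein uptake and is a target of the liver X receptors. It was at 21.9, 20.0 and 18.8 CPM in Wt DN3 libraries and 70.4, 54.0, 48.4 and 129.8 CPM in Wt DN4 libraries. It rose by 1.88 on the log2 scale in Wt (edgeR adjusted p = 0.00616) and 1.46 in KO-labelled mice (adjusted p = 0.0343). The KO-labelled call was lost without the DN3 library of KO49 (0.123) or KO51 (0.109), or with KO45 or KO49 (0.0897 each) missing from DN4.

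Lipa, the lysosomal lipase that frees cholesterol from its esters, was at 40.4, 43.4 and 42.5 CPM in Wt DN3 and 130.0, 140.6, 101.5 and 105.8 CPM in Wt DN4 libraries. It rose by 1.48 on the log2 scale in Wt (edgeR adjusted p = 0.000302) and 1.503 in KO-labelled mice (adjusted p = 0.0180, and above 0.05, at 0.0844 and 0.0780, without the DN3 library of KO49 or of KO51). With KO45 missing from DN4, Lipa rose by 0.99. Gramd1a, which moves sterol from the plasma membrane to the endoplasmic reticulum, was at 67.9, 111.8 and 90.1 CPM in Wt DN3 and 471.3, 456.4, 435.3 and 415.3 CPM in Wt DN4 libraries, and rose by 2.27 (adjusted p = 0.000114). In KO-labelled mice it rose by 1.96 (adjusted p = 0.000798). Both genes were higher in the DN4 library of 6 of 6 mice.

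Of 9 efflux and esterification genes, 7 could be tested in Wt mice and 1, Abca1, was called, higher in DN4, beside 13.4% of all genes. In KO-labelled mice 2 of 6 were called, Abca1 and Apoe (log2 fold change 0.92, edgeR adjusted p = 0.0119), both higher, beside 11.2%. With the mouse as a block 1 of 7 was called higher in Wt mice (12.1% of all genes), 4 of 6 in KO-labelled mice (Abca1, Apoe, Abcg1 and Nr1h2, 18.9%) and 5 of 8 over the 6 mice (23%), and 0 lower in each. Abca1, a cholesterol exporter and like Mylip a liver X receptor target, was at 7.90, 6.28 and 7.16 CPM in Wt DN3 and 83.5, 65.9, 38.9 and 127.0 CPM in Wt DN4 libraries (log2 fold change 3.46, edgeR adjusted p = 0.000833). In KO-labelled mice it was at 11.4, 4.26 and 1.86 CPM in DN3 and 69.2, 70.5 and 27.0 CPM in DN4 (3.18, adjusted p = 0.0104, and 0.0539 without the DN3 library of KO49).

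Both Abca1 and Mylip were highest in the DN4 library of WT48, where the B cell markers summed to 4090 CPM. In the DN4 libraries of KO45, KO49 and KO51, the marker sums were 1341, 2384 and 366 CPM, and both genes were lowest in KO51. Without the DN4 library of WT48 the log2 fold change of Abca1 was 3.13 (edgeR adjusted p = 0.000769). The part of B cells in these differences was not tested.

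**Figure D3:**
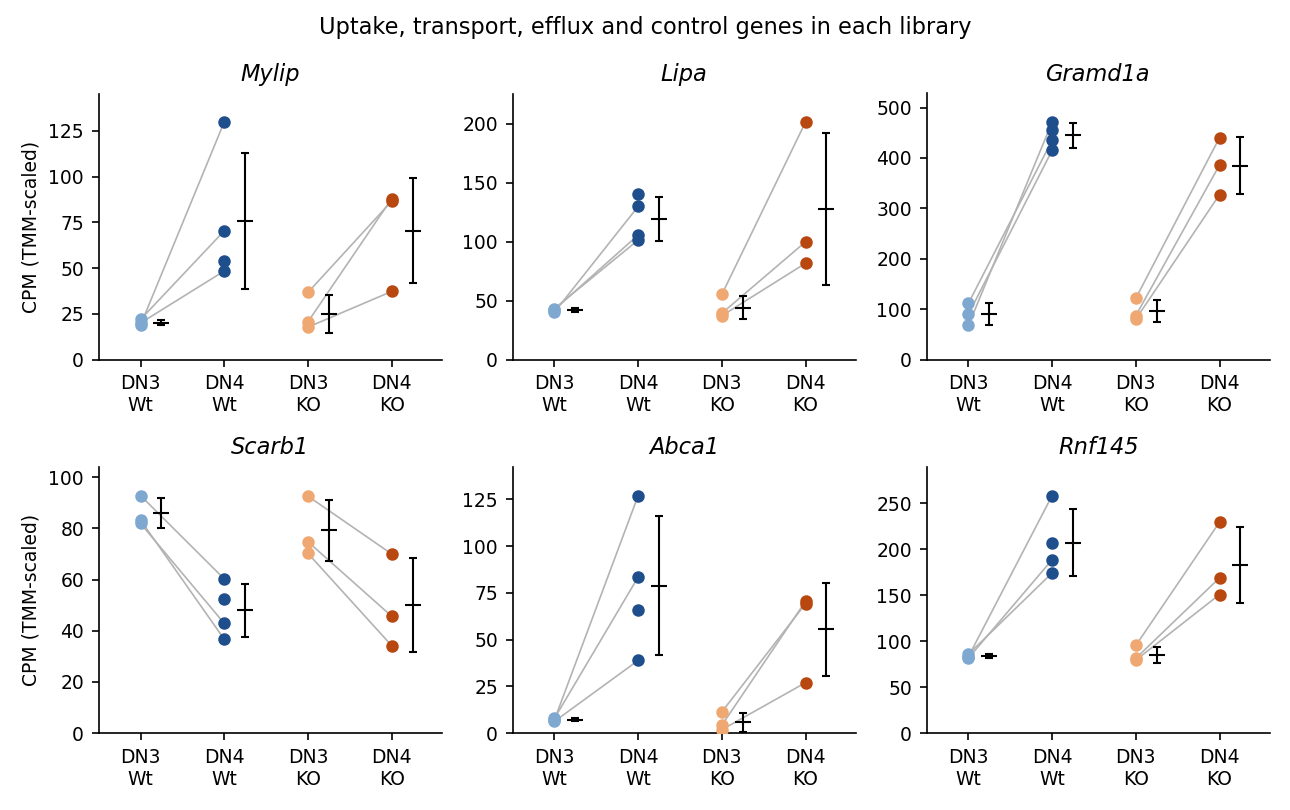
Levels of Mylip, Lipa, Gramd1a, Scarb1, Abca1 and Rnf145 in each library, as CPM on TMM-scaled library sizes (axes start at 0). Points are libraries, grey lines join the libraries of 1 mouse, and black bars give the mean ± SD (n = 3, or 4 in DN4 Wt). Scarb1 falls and the other 5 genes rise in all 6 mice, and DN4 levels of Mylip and Abca1 differ widely between mice.

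The 7 genes lay on the same side of their group means in KO45 and in KO51, but not in the other mice. Against the mean of its group on the log2 scale, KO45 lay low and KO51 high at both stages. Averaged over the 7 genes, the deviation was -0.41 in DN3 and -0.38 in DN4 for KO45, -0.02 and -0.05 for KO49, and 0.42 and 0.43 for KO51. All 7 genes were below the group mean in both libraries of KO45, and 0 of 7 in those of KO51. Wt libraries lay between -0.17 (DN4 of WT48) and 0.19 (DN4 of WT46), with 1 to 5 of the 7 genes below the group mean. The levels of 5 of the 7 genes (Hmgcs1, Idi1, Fdft1, Sqle and Srebf2) rose in the order KO45, KO49, KO51 at both stages, which held for 8.97% of 13361 genes.

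The deviation of a gene in the DN3 library of a mouse had the same sign as in its DN4 library in 33 of 42 pairs, with a Pearson r of 0.795 (0.881 in KO-labelled and 0.472 in Wt mice, 21 pairs each). These pairs share 6 mice and their libraries' scaling, so r is a description. Between the genes, r of the deviations over 13 libraries ran from 0.572 to 0.899, with a median of 0.734 over the 21 pairs of genes. These libraries include those of KO45 and KO51, and r over Wt libraries alone was not calculated. Proliferation genes and markers of other cells also differed between these mice. The summed level of 10 proliferation genes was 2491, 3762 and 3771 CPM in DN3 and 3108, 3881 and 4625 CPM in DN4 for KO45, KO49 and KO51 in turn. In Wt DN4 libraries it was lowest in WT48 (2509 CPM) and highest in WT46 (4107.5 CPM), the same mice as for the 7 genes, but in DN3 it was highest in WT05 (5522 CPM), which lay near the mean (-0.01). In DN4 the B cell markers summed to 1341, 2384 and 366 CPM and the markers of the later stages to 5227, 1758 and 2238 CPM for KO45, KO49 and KO51 in turn. In WT48, the lowest of the Wt DN4 libraries for the 7 genes, these sums were 4090 and 891 CPM, against 445 to 2077 and 1557 to 3305 CPM in the other 3. In DN3 the B cell markers summed to 67.3, 55.1 and 55.3 CPM for KO45, KO49 and KO51 in turn. The part of these measures in the spread between mice was not tested. Between the stages the proliferation sums overlapped in both genotypes, and edgeR called 0 of the 10 genes in either, where 22.9% of all genes in Wt and 18.6% in KO-labelled mice were called (0 in Wt and 1 in KO-labelled mice had an unadjusted p under 0.05, and 0 and 2 were called higher with the block, beside 12.1% and 18.9% of all genes).

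**Figure D4:**
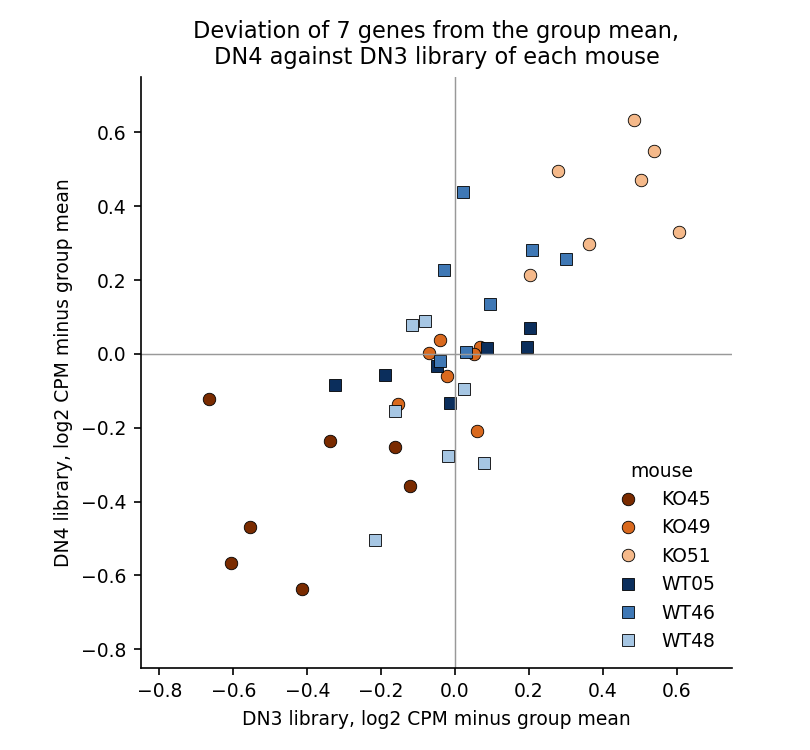
Deviation of each of the 7 genes from its group mean (log2 CPM) in the DN4 library against the DN3 library of the same mouse. Each colour is a mouse, circles KO-labelled and squares Wt, with 7 points each. All 7 points of KO45 are below 0 on both axes and all 7 of KO51 above 0 on both, while the points of KO49 and of the Wt mice lie on both sides of 0.

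Genes with the most similar pattern included other enzymes of the pathway. Over the 13 libraries, log2 CPM of Cyp51 (r = 0.9498), Kctd17 (0.945), Prmt5 (0.943) and Nsdhl (0.932), a sterol dehydrogenase, were among the 5 that followed the mean of the 7 standardised genes most closely among 13354 genes. With the group means removed, Cyp51 (0.956), Nsdhl (0.947), Rcan1 (0.943) and Ubtf (0.942) were among the 5. Of the 17 other synthesis enzymes, 6 were among the first 100 by log2 CPM and 4 by deviation, with Fdps, Cyp51 and Nsdhl in both. Without the 2 libraries farthest from the median, r of the genes named ran from 0.887 to 0.927. The libraries share mice and scaling, and these values describe 13 libraries only.

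Whether loss of Opa1 changes this pathway is the question of the genotype comparison. Between KO-labelled and Wt libraries, 0 of the 7 genes were called in DN4, where 0.0535% of 13084 genes were (7 genes, all lower), and 0 in DN3, where 0% of 12105 were. At an unadjusted p under 0.05 there were 715 genes in DN4 and 168 in DN3, and DESeq2 called 53 and 1. None of the 7 had an unadjusted p under 0.05 in either stage, and DESeq2 called 0 of 7 as well. The groups overlapped for all 7, where 4.34% of genes did not overlap in the lower and 2.74% in the higher direction in DN4, and 3.34% and 3.1% in DN3. In DN4 the log2 fold changes lay between -0.31 (Idi1) and 0.07 (Srebf2), with edgeR adjusted p from 0.931 to 0.997. In DN3 they lay between -0.22 (Lss) and 0.06 (Insig1), each with an adjusted p of 0.99996.

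The intervals of these differences are wide. For Sqle the 95% interval was -0.68 to 0.58 in DN4 and -0.63 to 0.35 in DN3. For Idi1 it was -0.96 to 0.33 in DN4. The narrowest was that of Srebf2 in DN4, from -0.20 to 0.34. For Hmgcs1, which had 71.6 ± 27.1 CPM in KO-labelled DN4 (SD, n = 3) and 78.8 ± 6.21 CPM in Wt DN4 libraries (SD, n = 4), the interval was -0.63 to 0.41. The Wt stage changes of Hmgcs1 (log2 fold change -0.39) and Idi1 (-0.59) were within the DN3 and the DN4 interval of the same gene. That of Lss (-0.52) was within its DN3 interval only, and that of Sqle (-0.74) was outside both. A p that misses the threshold does not show equal levels. Single mice set some directions: without the DN3 library of KO45 the DN3 log2 fold change of Hmgcs1 was 0.22, and without that of KO51 it was -0.34.

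None of the 7 genes had a stage difference that was called different between the genotypes. The interaction ranged from -0.30 (Idi1, 95% interval -1.20 to 0.60) to 0.18 (Srebf2, -0.22 to 0.57), with an adjusted p of 0.99996 for each and 0% of 13361 genes called (480 had an unadjusted p under 0.05, 0 of the 7 among them, and DESeq2 called 0). With the mouse as a block 0% of genes were called too, and adjusted p for the 7 ran from 0.903 to 0.988. Over the 22 enzymes and the lists for SREBP control, uptake, efflux, fatty acid synthesis and prenylation, edgeR called 0 genes in DN4, DN3 or the interaction, with 3 of 73, 0 of 71 and 1 of 73 at an unadjusted p under 0.05. Y-linked Ddx3y was counted in WT40 and WT46 only, so the Wt group held both sexes and the KO-labelled group 1, and sex could not be told apart from genotype in full.

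**Figure D5:**
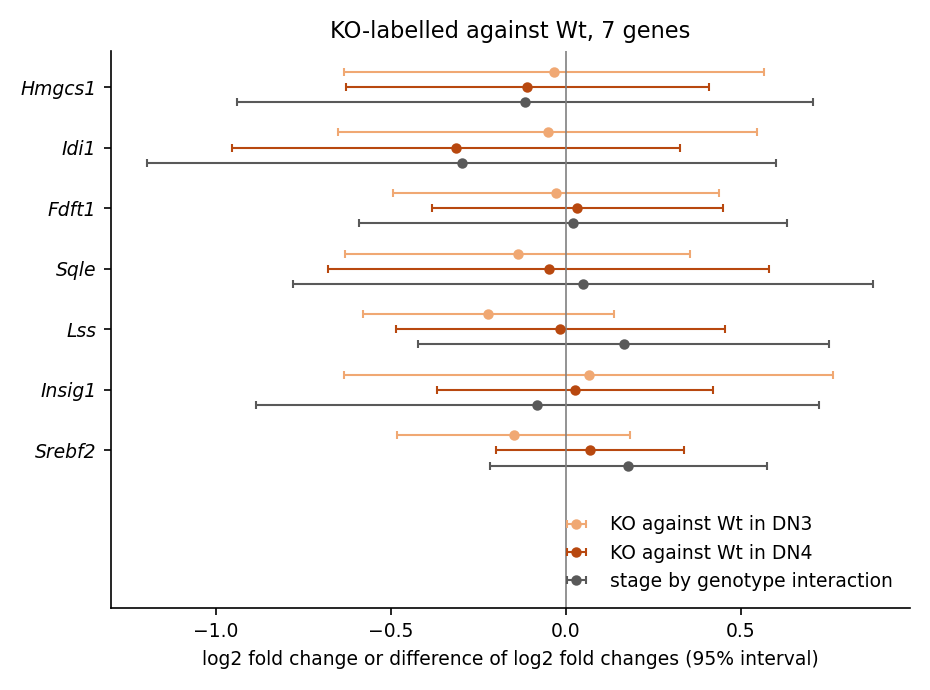
Log2 fold change of KO-labelled against Wt in DN3 (light orange) and DN4 (dark orange), and the difference of the stage changes between genotypes (grey), for the 7 genes, with 95% intervals from edgeR. All 21 intervals include 0, and those of the interaction are the widest for each of the 7 genes.

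Some counts are less certain than others, because the strand setting of the counting is not given in the sources used here. In GENCODE M21 on GRCm38, Fdft1 (chromosome 14, 63145150 to 63179578) overlaps Ctsb on the opposite strand, and 26.5% of its 50-base stretches recur in Ctsb or Gm6781. Idi1 (chromosome 13, 8885501 to 8892451) shares 25.3% with 5 gene models, Gm48574 on the opposite strand among them. Hmgcs1 (chromosome 13, 119690379 to 119708260) shares 11.6%, with stretches in many other genes, and lies opposite Gm48342. Sqle (chromosome 15, 59315077 to 59331192) shares 0.0358% and overlaps no gene. Lss (chromosome 10, 76531588 to 76557138) lies opposite 4930483K19Rik and shares 1.86%, Insig1 (chromosome 5, 28071363 to 28078662) shares 2.17%, and Srebf2 (chromosome 15, 82147181 to 82205379), which overlaps Mir33 and Gm49502 on its own strand, shares 0.396%. All 7 are protein coding.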

How the data were processed

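RNA of sorted DN3 and DN4 thymocytes was measured in 13 libraries. Per the study's methods, the authors made stranded mRNA libraries, used Cutadapt for trimming and STAR for mapping, and obtained counts per gene from featureCounts. These whole-number counts were deposited without normalization, and the submitters' processing notes name the build mm10. From the counts, genes were kept with filterByExpr (minimum count 10), library sizes were scaled by TMM, and the libraries of each comparison alone entered edgeR's quasi-likelihood test (edgeR 4.0.16, R 4.3.3), adjusted by Benjamini-Hochberg over all genes tested at a threshold of 0.05. The interaction used all 13 libraries. CPM are on TMM-scaled library sizes.

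Genes named are the 7, their partners Insig2, Srebf1 and Scap, up to 4 called genes per direction of each further list in Wt mice, the 5 most similar genes by each measure, and Opa1 and Il2ra. Cyp51 was named by the likeness rule; Pmvk, Ebp, Apoe, Abcg1, Nr1h2 and Fads1 were named after their values were seen. Members and lists were chosen with earlier results of these data known. Counts limit precision: the 7 genes had 93 to 4040 counts per library. Mouse numbers pair the libraries: over 13361 genes, the deviations from the group mean of a mouse's DN3 and DN4 library correlated at 0.495, 0.226 and 0.366 (KO45, KO49, KO51) and 0.164, 0.123 and 0.185 (WT05, WT46, WT48). No 2 libraries of a group agreed within sampling noise (chi-squared per degree of freedom at least 5.85). Alternatives were DESeq2 1.42.0 (size factors, Wald test), library totals, no filter beyond 1 count, a single fit of all 13 libraries, leaving out each library and the mouse as a block, and, chosen after seeing the data, the 6 paired mice in one fit and both libraries of KO45 left out. No columns of the table were left unused; Fdft1 and Sqle promoters were not analysed here. Some genes of the lists are counted in the totals but their own values are not reported here.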

Additional observations from a re-analysis of the deposited data

Results flagged for a closer look

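Among the 28 sets of DN4 Wt libraries looked at, 1 per gene, 1 value stood apart from the other 3 by Dixon's criterion, and chance marks about 1 in 20. Insig1 was at 40.9 CPM in the DN4 library of WT46 and between 32.0 and 32.4 CPM in the other 3. WT46 also had 6 of the 7 genes above the mean of the DN4 Wt libraries.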

How the results depend on the processing

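Sqle and Lss in Wt mice kept their direction under every alternative run. From DN3 to DN4 in Wt mice, library totals gave 1782 called genes (22.2% lower, against 41.2% of 2903), 0 of the 7 genes called and a median of -0.17 for them; one fit of all 13 libraries called 0, the mouse as a replicate block 1, and the 6 paired mice 5459 genes. With a library left out, 1845 to 3393 genes and 1 to 3 of the 7 were called, with medians of -0.47 to -0.30. In KO-labelled mice, the replicate block called 4499 genes and 4 of the 7, no filter and DESeq2 called 1 each, and leaving out a library gave 1407 to 2790 genes, 0 to 3 of the 7 (3 without the DN4 library of KO51) and medians of -0.66 to -0.21. Between the genotypes, no filter and DESeq2 called 11 and 53 genes in DN4 and 1 and 1 in DN3, and leaving out a library gave 0 to 8 in DN4 and 0 to 1 in DN3, with medians of the 7 of -0.30 to 0.14 and -0.34 to 0.13. The cause of these moves was not tested.

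Directions turned only for values that had not passed. Library totals gave 0.086 for Insig1 and 0.021 for Srebf2 from DN3 to DN4 in Wt, -0.00660 for Srebf2 in KO-labelled mice, 0.24, 0.21, 0.18, 0.090, 0.014 and 0.11 for Hmgcs1, Idi1, Fdft1, Sqle, Lss and Srebf2 between genotypes in DN3, and -0.14, -0.13, -0.020 and -0.028 for Fdft1, Sqle, Lss and Srebf2 in the interaction. The replicate block gave -0.0054 for Srebf2 in KO-labelled mice, and one fit of all libraries -0.00771 for Insig1 between genotypes in DN4. With a library left out, ranges spanning 0 were, between stages, -0.20 to 0.12 for Insig1 in Wt and, in KO-labelled mice, -0.40 to 0.20 for Insig1, -0.35 to 0.011 for Fdft1 and -0.13 to 0.088 for Srebf2. Between genotypes in DN4 they were -0.42 to 0.12 (Hmgcs1), -0.41 to 0.21 (Sqle), -0.30 to 0.14 (Lss), -0.12 to 0.14 (Fdft1), -0.15 to 0.15 (Insig1) and -0.032 to 0.18 (Srebf2). In DN3 they were -0.34 to 0.22 (Hmgcs1), -0.34 to 0.19 (Idi1), -0.23 to 0.13 (Fdft1), -0.42 to 0.048 (Sqle) and -0.29 to 0.34 (Insig1). In the interaction they were -0.43 to 0.19 (Hmgcs1), -0.14 to 0.23 (Fdft1), -0.32 to 0.33 (Sqle), -0.13 to 0.33 (Lss) and -0.36 to 0.28 (Insig1), with a median of the 7 of -0.27 to 0.28.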

Other observations

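Of 9 fatty acid genes under SREBP1 that could be tested in Wt mice, 3 (Fasn, Elovl6 and Fads2) were called lower and 1 (Scd1) higher from DN3 to DN4, beside 9.43% and 13.4% of all genes. With the mouse as a block the 3 were Elovl6, Fads1 and Fads2 and the 1 again Scd1, beside 6.53% and 12.1%. In KO-labelled mice 2 were called lower and 1 higher, beside 7.34% and 11.2%, and 4 and 2 with the block, beside 16.9% and 18.9%. Fads2, a fatty acid desaturase, was at 89.0, 123.8 and 123.2 CPM in Wt DN3 and 29.2, 40.8, 50.2 and 31.8 CPM in Wt DN4 libraries, and fell by 1.59 on the log2 scale (edgeR adjusted p = 0.00131) and by 1.52 in KO-labelled mice (adjusted p = 0.0175, and 0.0524 and 0.0523 without the DN3 library of KO49 or of KO51). Elovl6, which lengthens palmitate, fell by 0.82 in Wt (adjusted p = 0.00298) and 1.23 in KO-labelled mice (adjusted p = 0.0110). Fasn, fatty acid synthase, was highest in the DN3 library of WT05 at 710.2 CPM, against 371 and 395 CPM in WT48 and WT46, and was called lower in Wt mice (log2 fold change -0.79, adjusted p = 0.0328). Without that library the log2 fold change was -0.44 (adjusted p = 0.0139). The call was lost with the mouse as a block (0.0627) and without any 1 of the 4 DN4 libraries (0.0620 to 0.0875). With library totals as the scaling neither Elovl6 (0.127) nor Fasn (0.168) passed in Wt mice. In KO-labelled mice the log2 fold change was -0.23 (adjusted p = 0.561), from -0.50 without the DN4 library of KO51 to -0.033 without that of KO45, and the difference between the genotypes was not called in the interaction.

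Scd1, a stearoyl-CoA desaturase, went the other way, from 0.293 to 2.92 CPM in Wt DN3 libraries to 248.0, 52.0, 52.0 and 401.9 CPM in the DN4 libraries of WT05, WT40, WT46 and WT48. B cell markers in these 4 libraries summed to 2077, 445, 615 and 4090 CPM, and the part of B cells in the Scd1 level was not tested. Of 10 genes for prenylation, dolichol and coenzyme Q, which draw on the same isoprene units, 1 was called lower in Wt mice, Coq2 (log2 fold change -0.38, edgeR adjusted p = 0.0375), beside 9.43% of all genes, and 0 in KO-labelled mice (1 had an unadjusted p under 0.05). With the mouse as a block Coq2 was not called in Wt mice (adjusted p = 0.165) but was in KO-labelled mice (0.0243, beside 16.9% of all genes lower). In Wt mice its call was also lost without the DN3 library of WT46 or WT48 or the DN4 library of WT05, WT40 or WT46 (0.0786 to 0.110), and with library totals as the scaling (0.7496).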
